A study of Mus musculus with 32 samples.

Results

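Skeletal muscle transcripts were abundant in some sciatic nerve libraries of this mouse series and nearly missing from others, and the muscle-rich and muscle-poor libraries are described here. The 32 libraries were ranked by the CPM of Acta1 (its count divided by the library's total count and multiplied by 1000000), the alpha-actin of the skeletal muscle thin filament. The 10 highest formed the muscle-rich side and the 10 lowest the muscle-poor side, 20 of 32 libraries in all. The 12 libraries between them belonged to neither side. Because the sides were chosen by Acta1 in the same libraries, every difference between them is a description and carries no test. Transcripts were tested in the 12 intermediate libraries, which the choice placed on no side.

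All mice were 6 months old, and each library came from a separately numbered sciatic nerve sample of 1 of 4 genotypes: C3-PMP22, C3-PMP22 Sipa1l2-/-, Sipa1l2-/- and WT. C3-PMP22 mice carry a human PMP22 transgene and serve as a mouse model for CMT1A, an inherited demyelinating neuropathy, and Sipa1l2-/- mice are labelled as lacking Sipa1l2, which the series examined as a modifier of that model. Counts of Sipa1l2 over the whole gene ran from 43.2 to 153 CPM in C3-PMP22 Sipa1l2-/-, 52.9 to 154 CPM in Sipa1l2-/-, 40.1 to 144 CPM in C3-PMP22 and 68.2 to 128 CPM in WT libraries. They overlapped and do not bear out the label; which stretch of the gene was removed is not stated. The labels call the tissue sciatic nerve and name no muscle, so the muscle transcripts are measured beside the study's own question. Nothing in the labels says whether a sample number stands for a separate mouse, so p-values measure the spread between samples.

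In mature skeletal muscle a fibre's transcripts fall into a few well known groups. Sarcomere genes encode the thin and thick filaments, titin and the Z disc; excitation and calcium genes encode the channels and pumps that start and end a contraction; and energy genes encode creatine kinase, glycolysis and the respiratory chain. Many of these proteins exist in a muscle form and in a form that most cells make, from separate genes. Fast and slow fibres differ in which myosin, troponin and calcium pump genes they use. A peripheral nerve is surrounded by muscle and holds Schwann cells, axons, fibroblasts, perineurial cells, vessels and fat, whose transcripts were measured in the same libraries.

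The promoters of 2 muscle genes and 1 broad form are shown first, because Acta1 chose the sides and Ckm and Ckb, the muscle and the broad creatine kinase, are the clearest pair to set beside it. These are the 250 bases before the annotated RefSeq start (GRCm38.p6), with E-boxes (CANNTG), CArG boxes, MEF2 sites and TATAAA, searched on both strands, in capitals.
Acta1, chr8:123894776-123895025, minus strand: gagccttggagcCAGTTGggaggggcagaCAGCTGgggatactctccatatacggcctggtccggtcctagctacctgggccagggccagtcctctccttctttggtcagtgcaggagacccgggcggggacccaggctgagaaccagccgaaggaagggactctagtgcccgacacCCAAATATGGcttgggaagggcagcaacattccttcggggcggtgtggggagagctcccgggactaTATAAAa
Ckm, chr7:19410844-19411093, plus strand: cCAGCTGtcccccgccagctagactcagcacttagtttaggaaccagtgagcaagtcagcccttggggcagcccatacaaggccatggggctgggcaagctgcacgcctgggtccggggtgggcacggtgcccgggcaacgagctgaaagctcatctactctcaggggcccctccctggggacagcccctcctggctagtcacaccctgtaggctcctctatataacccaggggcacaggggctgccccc
Ckb, chr12:111672339-111672588, minus strand: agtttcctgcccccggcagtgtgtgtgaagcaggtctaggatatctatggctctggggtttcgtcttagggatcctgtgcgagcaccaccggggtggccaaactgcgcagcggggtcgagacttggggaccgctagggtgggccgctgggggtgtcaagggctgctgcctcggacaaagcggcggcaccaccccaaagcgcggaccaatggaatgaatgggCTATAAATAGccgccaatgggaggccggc
The Acta1 stretch held 2 E-boxes, 1 CArG box and 1 TATAAA, the Ckm stretch 1 E-box, and the Ckb stretch 1 MEF2 site that overlaps its TATAAA. An E-box stood in 66.2% of all 32851 promoter stretches of this length in the table, a CArG box in 1.47%, a MEF2 site in 2.92% and TATAAA in 12.4%. The 307 genes described below as following Acta1 in both comparisons had 300 promoter entries, and an E-box stood in 73.7% of these, a CArG box in 2%, a MEF2 site in 9.33% and TATAAA in 10.3%.

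Acta1 (chromosome 8, 123891769 to 123894751, GRCm38) ran from 4629 to 13534 CPM on the muscle-rich side with a median of 6306, from 488.6 to 4477 CPM in the intermediate libraries with a median of 2218, and from 0.638 to 434.7 CPM on the muscle-poor side with a median of 29.6. The ranking had no break at either edge. The last muscle-rich library, C3-PMP22 Sipa1l2-/- 1, had 4629 CPM, against 4477 CPM in the first intermediate library, C3-PMP22 Sipa1l2-/- 3. The last intermediate library, WT 6, had 488.6 CPM, against 434.7 CPM in the first muscle-poor library, WT 4. The 2 highest libraries, C3-PMP22 7 and C3-PMP22 8, had 13534 and 12901 CPM and stood above the third, Sipa1l2-/- 6, at 8037 CPM.

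The 59 listed genes of the thin filament, thick filament and Z disc, Acta1 among them, held 4.16% to 14.4% of a library's counts on the muscle-rich side, with a median of 6.11%. On the muscle-poor side they held 0.134% to 0.621%, with a median of 0.176%. Without Acta1 the medians were 5.52% on the muscle-rich side and 0.171% on the muscle-poor side. Some of these genes, Tpm3 among them, are also made outside muscle, so the muscle-poor share is not muscle alone. The 16 listed fast-fibre genes had medians of 4.49% on the muscle-rich side and 0.0155% on the muscle-poor side. Nerve markers were present on both sides. The 25 listed genes of myelinating Schwann cells summed to 0.627% to 2.56% of counts on the muscle-rich side and to 1.32% to 4.02% on the muscle-poor side. Of the 10 skin and hair genes 3 could be compared and 1, Trp63, was higher on the muscle-rich side. The keratinocyte markers Krt5 and Krt14 had medians of 0 CPM on both sides.

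The sides were mixed in genotype. The muscle-rich side held 4 C3-PMP22, 2 C3-PMP22 Sipa1l2-/-, 3 Sipa1l2-/- and 1 WT library, and the muscle-poor side held 2 C3-PMP22, 1 C3-PMP22 Sipa1l2-/-, 4 Sipa1l2-/- and 3 WT libraries (Fisher-Freeman-Halton exact test, two-sided p = 0.67). Labelled sex was 7 female and 3 male on the muscle-rich side against 3 female and 7 male on the muscle-poor side (exact p = 0.179). The sample codes in the column headers come in 2 kinds, plain numbers and numbers with a leading G, whose meaning is not stated. Several codes share their leading part, among them those of C3-PMP22 7 and C3-PMP22 8. The muscle-rich side held 8 plain and 2 G libraries, the muscle-poor side 2 plain and 8 G libraries (exact p = 0.023, adjusted over 5 tests 0.115). The 2 plain libraries of the muscle-poor side are Sipa1l2-/- 5 and Sipa1l2-/- 7. Only Sipa1l2-/- thus had plain libraries on both sides, and only C3-PMP22 had G libraries on both sides. With genotype in the fit, comparisons within the plain-number or the G libraries rest on that 1 genotype and few libraries. Series and genotype cannot be told apart there, and counts of genes passing are not read as effects of the series. The 2 G libraries of the muscle-rich side are C3-PMP22 7 and C3-PMP22 8, labelled female. Against that label, their Y-linked Ddx3y stood at 102 and 104 CPM and their Xist at 0.0759 and 0.261 CPM. Total counts were 11857667 to 15307283 on the muscle-rich side and 11363694 to 15769062 on the muscle-poor side (permutation test, two-sided p = 0.273).

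**Figure D1:**
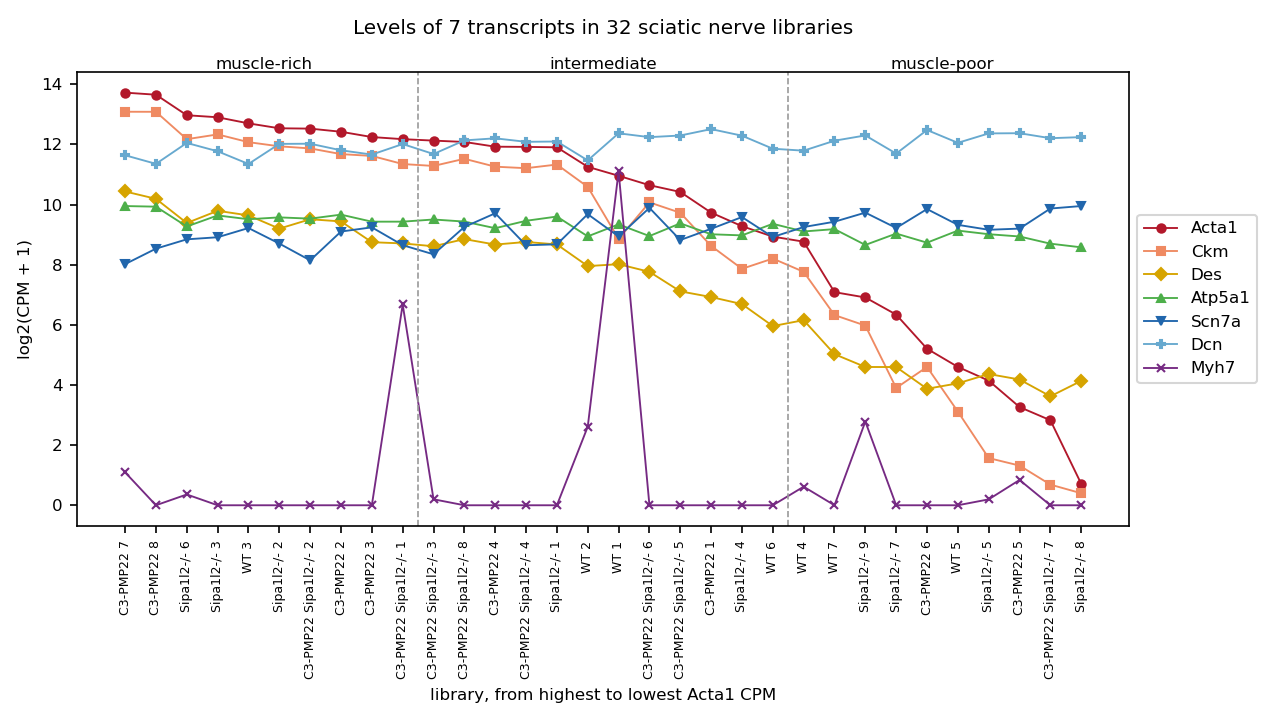
Level of 7 transcripts, as log2(CPM + 1), in each of 32 libraries ordered from the highest to the lowest Acta1 CPM; dashed lines separate the muscle-rich, intermediate and muscle-poor libraries. Ckm and Des descend with Acta1, Scn7a and Dcn do not, Atp5a1 descends slightly, and Myh7 stands out in WT 1 at 2201 CPM and in C3-PMP22 Sipa1l2-/- 1 at 101 CPM.

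Beyond Acta1, 15728 genes were compared between the sides with genotype as an additive term. An adjusted p of 0.05 from edgeR's quasi-likelihood fit served only to sort differences by size against spread. Past it, 2339 genes were higher on the muscle-rich side, 14.9% of those compared, and 1775 were lower, 11.3%. The higher genes spanned a far wider range of sizes. Of them, 268 were higher by at least 4 on the log2 scale and 1534 by less than 1, whereas 40 of the lower genes were lower by at least 1. The median over all genes was -0.07, and differences are read against it.

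The split between higher and lower genes depended on how libraries were scaled. With the trimmed mean of M-values (TMM), which was used for the values given here, 56.9% of the sorted genes were higher. Scaling by total counts gave 1473 higher and 6616 lower genes, so that 18.2% were higher, and moved the median of all genes to -0.31. Scaling by the counts outside the muscle lists gave 43.5% higher, with a median of -0.14. The count of lower genes also rested on single libraries, at 960 without Sipa1l2-/- 3, 1012 without C3-PMP22 Sipa1l2-/- 2, 1052 without Sipa1l2-/- 2, 1061 without C3-PMP22 8, 1064 without C3-PMP22 7 and 1166 without C3-PMP22 6. Within the plain-number libraries it was 179 and within the G libraries 805.

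In the 12 intermediate libraries, which were tested by themselves, 309 of 15797 genes rose with Acta1, 1.96% of those tested, and 4 fell, 0.0253% (edgeR quasi-likelihood test of the slope per log2 unit of Acta1 CPM, genotype additive, adjusted p under 0.05). At an unadjusted p under 0.05, 984 slopes were positive and 314 negative. Acta1 spanned 3.20 log2 units there. A slope of 1 means that a transcript doubled whenever Acta1 doubled. The 95% interval held 1 for 154 of the 309 rising genes, lay below 1 for 148 and above 1 for 7, with a median slope of 0.82. The count of rising genes was 226 to 327 when 1 WT or C3-PMP22 Sipa1l2-/- library was left out. It was lower when 1 of the 2 Sipa1l2-/- or 2 C3-PMP22 libraries was left out. The remaining library then stands alone in its genotype and the genotype term takes it up. Those counts are therefore not read as the influence of a single library.

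The genes that rose in the intermediate libraries were nearly all higher on the muscle-rich side as well. Of the 308 tested in both comparisons, 307 were. Of the 4 that fell, 1 was lower on the muscle-rich side. Of the 268 genes higher by at least 4 on the log2 scale, 160 had a tested positive slope. The typical 95% interval reached 0.286 either side of a log2 difference and 0.172 either side of a slope. A difference below about 0.3 between the sides was therefore not detectable for a typical gene. In bulk tissue, more muscle fibres and more muscle RNA per fibre cannot be told apart.

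**Figure D2:**
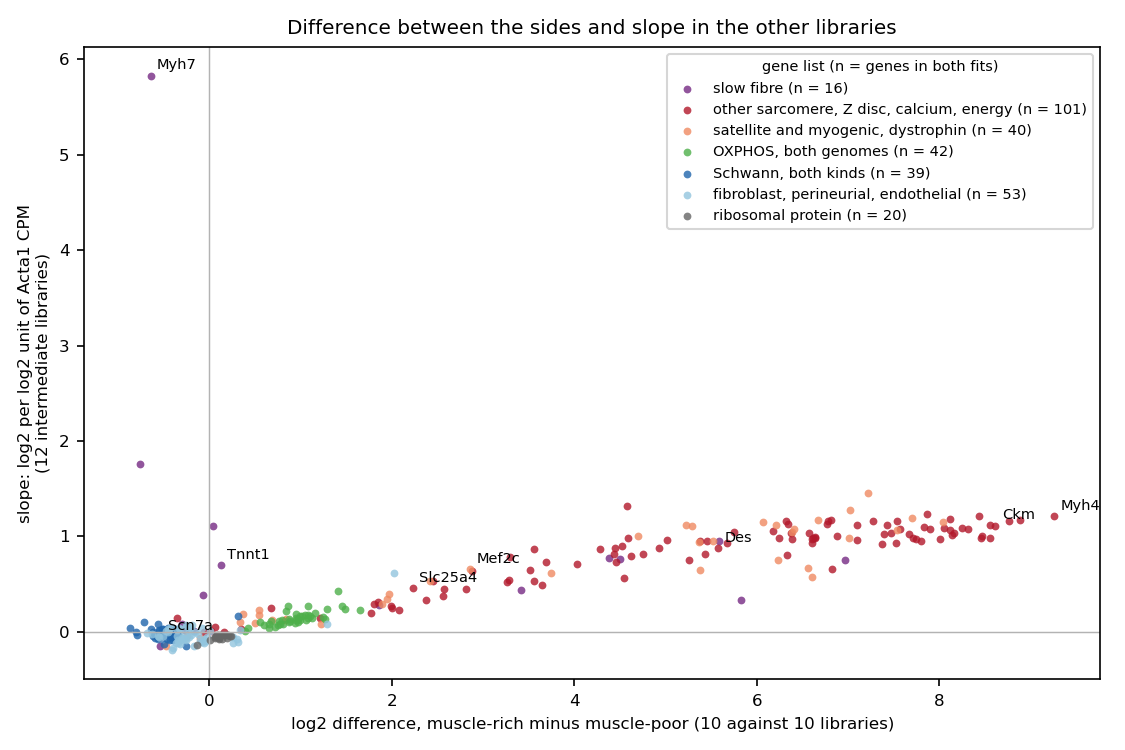
Each dot is a gene of the lists named in the legend, with its log2 difference between the muscle-rich and the muscle-poor side on the horizontal axis and its slope on log2 Acta1 CPM in the 12 intermediate libraries on the vertical axis. Fast and general muscle genes lie to the right with slopes near 1, nuclear OXPHOS genes (oxidative phosphorylation) near a difference of 1 with slopes of 0.01 to 0.27, nerve cell lists around 0 or slightly left, and several slow-fibre genes (Myh7, Tnnt1) lie near no difference.

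Of the 309 rising genes, 79 stood in one of the lists described here and 230 in none. In the thin filament list, 9 of 14 genes were higher on the muscle-rich side and 2 lower (median difference 4.41), and 6 rose in the intermediate libraries. Members that were near 0 in the muscle-poor libraries entered the comparison through the muscle-rich side, so the counts per list describe the libraries and are no support. Tnnt3, the fast troponin T, had 2531 to 8179 CPM on the muscle-rich side (median 4112) and 5.05 to 231 CPM on the muscle-poor side (median 21.4). These ranges were far apart, with a log2 difference of 7.90 ± 0.73 (SE) and a slope of 1.08 ± 0.17 (edgeR adjusted p = 0.0091). Neb, the giant ruler protein of the thin filament, had 2420 to 8566 CPM on the muscle-rich side and 1.60 to 318 CPM on the muscle-poor side. Its slope was 1.01 ± 0.11 (edgeR adjusted p = 0.0010).

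The thick filament and Z disc lists also held mostly higher genes. Of 16 thick filament genes, 12 were higher and none lower (median 6.53), and 5 of 17 rose in the intermediate libraries. Of 27 Z disc and titin genes, 26 were higher and none lower (median 6.39), and 16 rose. Ttn, titin, the molecular spring of the sarcomere, had 3136 to 13733 CPM on the muscle-rich side (median 5329) and 0.875 to 573 CPM on the muscle-poor side (median 14.3). Its ranges did not overlap, its log2 difference was 8.46 ± 1.14 and its slope 0.98 ± 0.12 (edgeR adjusted p = 0.0019). Cmya5, which encodes myospryn at the Z disc costamere, had 1055 to 3747 CPM against 15 to 177 CPM in the muscle-poor libraries, with a slope of 1.04 ± 0.10 (edgeR adjusted p = 0.00042).

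Mylpf, the fast regulatory myosin light chain, had 1258 to 4375 CPM on the muscle-rich side (median 1988) and 0.319 to 113 CPM on the muscle-poor side (median 4.63). Its slope was 1.09 ± 0.22 (edgeR adjusted p = 0.031). Myh4, the myosin heavy chain of fast type 2B fibres, had the highest level of the list, with 11087 to 44452 CPM on the muscle-rich side and 0.957 to 987 CPM on the muscle-poor side. Its slope of 1.21 ± 0.50 did not pass the test (edgeR adjusted p = 0.52). Without WT 1 it was 1.36 ± 0.21 (edgeR adjusted p = 0.0089). WT 1 likewise decided the test of Actn3, the Z disc alpha-actinin of fast fibres (adjusted p 0.33 with it and 0.0052 without), and of Pvalb, the calcium buffer parvalbumin of fast fibres (0.23 and 0.00030), both by edgeR.

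Excitation and calcium genes also followed Acta1. Of 25, 22 were higher and none lower on the muscle-rich side (median 6.32), and 19 rose in the intermediate libraries. Atp2a1, the calcium pump of the fast sarcoplasmic reticulum, had 5249 to 16392 CPM on the muscle-rich side (median 8905) and 0.718 to 707 CPM on the muscle-poor side (median 16.3), with a slope of 1.12 ± 0.18 (edgeR adjusted p = 0.0081). A share of 21.9% of its exon length overlaps Rabep2. Whether strand was used in counting was not checked, so reads there may belong to either gene. Cacna1s, the voltage sensor of the muscle fibre, had 241 to 732 CPM against 0.523 to 37.9 CPM in the muscle-poor libraries, and a slope of 1.12 ± 0.08 (edgeR adjusted p = 4.6e-05). Clcn1, the muscle chloride channel, had 31.5 to 128 CPM against 0 to 3.67 CPM, with a slope of 1.16 ± 0.07 (edgeR adjusted p = 2.1e-05).

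Energy genes showed a wider spread of slopes. Of 32, 31 were higher and none lower on the muscle-rich side (median 4.48), and 15 rose in the intermediate libraries (median slope 0.76). Ckm (chromosome 7, 19404776 to 19422841), the cytosolic creatine kinase of muscle, had 2609 to 8709 CPM on the muscle-rich side (median 4122) and 0.319 to 216 CPM on the muscle-poor side (median 10.8). Every muscle-rich library lay above every muscle-poor one, the log2 difference was 8.61 ± 1.12, and the slope was 1.11 ± 0.14 (edgeR adjusted p = 0.0019). Some energy genes stayed well above 0 in the muscle-poor libraries, and which cells made them was not tested. Aldoa, an aldolase of glycolysis, had 2945 to 8348 CPM on the muscle-rich side but still 457 to 870 CPM on the muscle-poor side. Its slope was 0.52 ± 0.12 (edgeR adjusted p = 0.056, and 0.0050 without WT 1). Gapdh, often used as a reference gene, had 2085 to 5987 CPM on the muscle-rich side and 549 to 893 CPM on the muscle-poor side, a log2 difference of 2.56 ± 0.24. Its slope of 0.37 ± 0.09 did not pass the test (edgeR adjusted p = 0.072, and 0.038 without WT 1). Pgk1, another glycolytic enzyme used as a reference gene, differed by 2.08 ± 0.25, with a slope of 0.34 ± 0.08 (edgeR adjusted p = 0.069).

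Muscle forms and broad forms of the same protein parted. Besides Acta1, 22 muscle forms were paired with 23 broad forms. All 22 muscle forms were higher on the muscle-rich side (median difference 7.03) and 17 rose in the intermediate libraries (median slope 1.00). Of the 23 broad forms, 1 was higher and 7 lower (median difference -0.30), against 14.9% and 11.3% of all genes compared. No slope of a broad form passed edgeR's test. The 22 muscle forms had a median of 6.75 and the 23 broad forms one of -0.53 with total-count scaling. There 21 broad forms were lower, against 6616 of all 15728 genes compared. The lower broad forms in the TMM fit were Ckb, Pygb, Pgam1, Atp2a2, Utrn, Cacna1c and Scn7a. Of these, Scn7a is a channel of non-myelinating Schwann cells and not a form that most cells make. Ckb, the creatine kinase of brain and other tissues, had 37.5 to 81.0 CPM on the muscle-rich side and 54.5 to 134 CPM on the muscle-poor side, a log2 difference of -0.50 ± 0.15 and a slope of -0.03 ± 0.08.

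Des, desmin, the intermediate filament of muscle, had 418 to 1385 CPM on the muscle-rich side (median 712) and 11.3 to 70.4 CPM on the muscle-poor side (median 18.4). Its slope was 0.88 ± 0.06 (edgeR adjusted p = 4.1e-05). Its partner Vim, vimentin, the intermediate filament of fibroblasts and Schwann cells, had 915 to 1676 CPM against 1572 to 2477 CPM in the muscle-poor libraries, with a log2 difference of -0.20 ± 0.10. Slc25a4, the heart and muscle ATP/ADP carrier, had 511 to 1372 CPM on the muscle-rich side and still 198 to 239 CPM on the muscle-poor side. Its slope was 0.46 ± 0.07 (edgeR adjusted p = 0.0047). Slc25a5, the broad carrier, differed by -0.09 ± 0.12. Cox6a2, the muscle form of a cytochrome c oxidase subunit, had 50.5 to 124 CPM against 0 to 6.04 CPM, with a slope of 1.13 ± 0.20 (edgeR adjusted p = 0.015), while Cox6a1 differed by -0.17 ± 0.10.

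Of the 22 muscle forms, 5 did not pass the test in the intermediate libraries. They were Ckmt2, the sarcomeric mitochondrial creatine kinase (edgeR adjusted p = 0.56), Cox7a1 (0.27), Cox8b (0.054), Actn3 (0.33) and Dmd (0.68). Dmd, dystrophin, which also has shorter products in Schwann cells, was the least different muscle form, at 138 to 228 CPM on the muscle-rich side and 100 to 192 CPM on the muscle-poor side, with a log2 difference of 0.55 ± 0.18 and overlapping ranges. Its broad counterpart Utrn, utrophin, had 572 to 1045 CPM on the muscle-rich side and 1126 to 1829 CPM on the muscle-poor side, a log2 difference of -0.55 ± 0.14 that was -0.21 within the plain-number libraries. Cox7a2 was the 1 broad form that was higher, by 0.36 ± 0.09, and by 0.12 with total-count scaling.

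**Figure D3:**
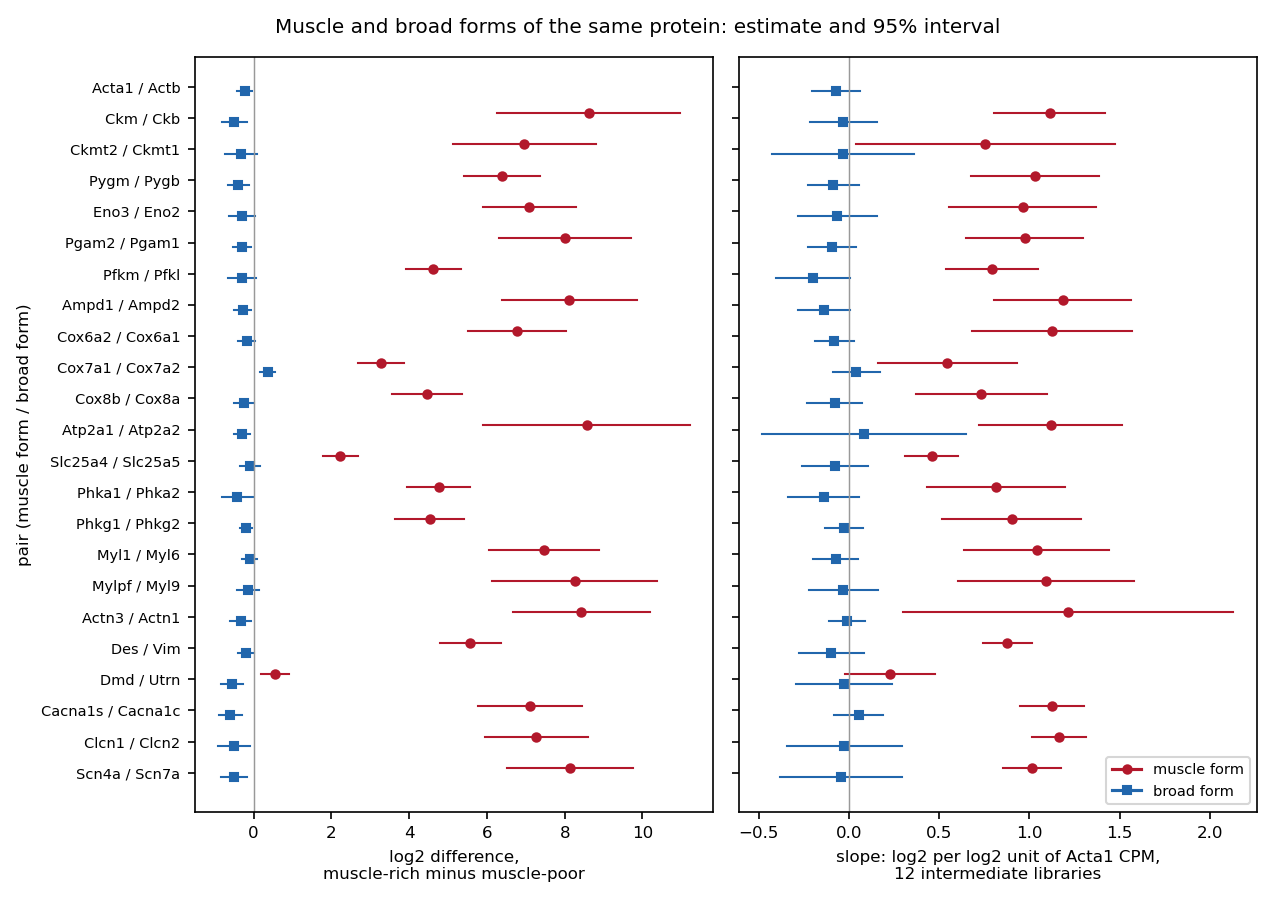
Estimate and 95% interval for the muscle form (red circles) and the broad form (blue squares) of 23 protein pairs: log2 difference of the muscle-rich minus the muscle-poor side at left, slope per log2 unit of Acta1 CPM in the 12 intermediate libraries at right. Acta1 itself is not drawn; muscle forms sit at differences of 0.55 to 8.62 and slopes of 0.23 to 1.22, broad forms at differences of -0.60 to 0.36.

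Fast-fibre and slow-fibre genes gave different counts, a difference that was not tested. All 16 fast-fibre genes were higher on the muscle-rich side (median difference 8.03), against 14.9% of all genes compared. Members near 0 in the muscle-poor libraries passed the filter through the muscle-rich side, so this count is no support. In the intermediate libraries 10 rose, against 1.96% of all genes tested. Of 16 slow-fibre genes, 6 were higher and 2 lower (median 0.08), against 14.9% and 11.3% of all genes compared. None had a slope past the threshold in edgeR's test. Of their slopes 15 were positive and 1 negative (median 0.57). Without WT 1, 9 were positive and 6 negative (median 0.18). The slow list's median difference was -0.20 with total-count scaling and -0.01 when scaled by the counts outside the muscle lists, so its sign is not set. With the number series added it was 1.30. The higher ones included Mb, myoglobin, by 5.59 and Fabp3, the fatty acid binding protein of muscle and heart, by 4.50. Tnnt1, the slow troponin T, had 0.421 to 25.6 CPM on the muscle-rich side (median 0.715) and 0.380 to 4.49 CPM on the muscle-poor side (median 0.774). Atp2a2, the calcium pump of slow fibres and of most other cells, had 91.4 to 214 CPM on the muscle-rich side and 161 to 229 CPM on the muscle-poor side. Tpm3, slow tropomyosin, which is also made outside muscle, had 109 to 212 CPM against 222 to 278 CPM, with no overlap and a log2 difference of -0.26 ± 0.06.

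The adult myosin heavy chains were compared with each other as shares of their counts per exon length. On the muscle-rich side Myh4 held 90.6% to 98.9% (median 96.7%), Myh1 of type 2X fibres 0.973% to 8.59%, Myh2 of type 2A fibres at most 2.41%, and Myh7 of slow fibres at most 0.612%. On the muscle-poor side Myh4 held 37.7% to 99.5% (median 87.7%), on far fewer counts. The largest departures lay among the intermediate libraries. In WT 1, Myh7 held 65.4%, Myh2 30.2% and Myh4 0.667%. In Sipa1l2-/- 4, Myh2 held 41.3%, Myh4 33.5% and Myh1 25.2%, and in C3-PMP22 1 Myh1 held 30.9%.

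WT 1 had 2201 CPM of Myh7, against at most 101 CPM in any muscle-rich and at most 5.89 CPM in any muscle-poor library. In the same library Myl2, the slow regulatory light chain, reached 576 CPM, Tnnt1 419 CPM, Myl3 372 CPM and Tnnc1, the slow and cardiac troponin C, 269 CPM. Its Ckm level of 463 CPM was low for its 1989 CPM of Acta1, next to 1540 CPM of Ckm and 2446 CPM of Acta1 in WT 2. Myh1, Myh2 and Myh4 lie in 1 gene cluster on chromosome 11 with similar sequences, and the authors' software splits reads that fit several genes among them, so the shares of these 3 are less certain than that of Myh7 on chromosome 14.

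**Figure D4:**
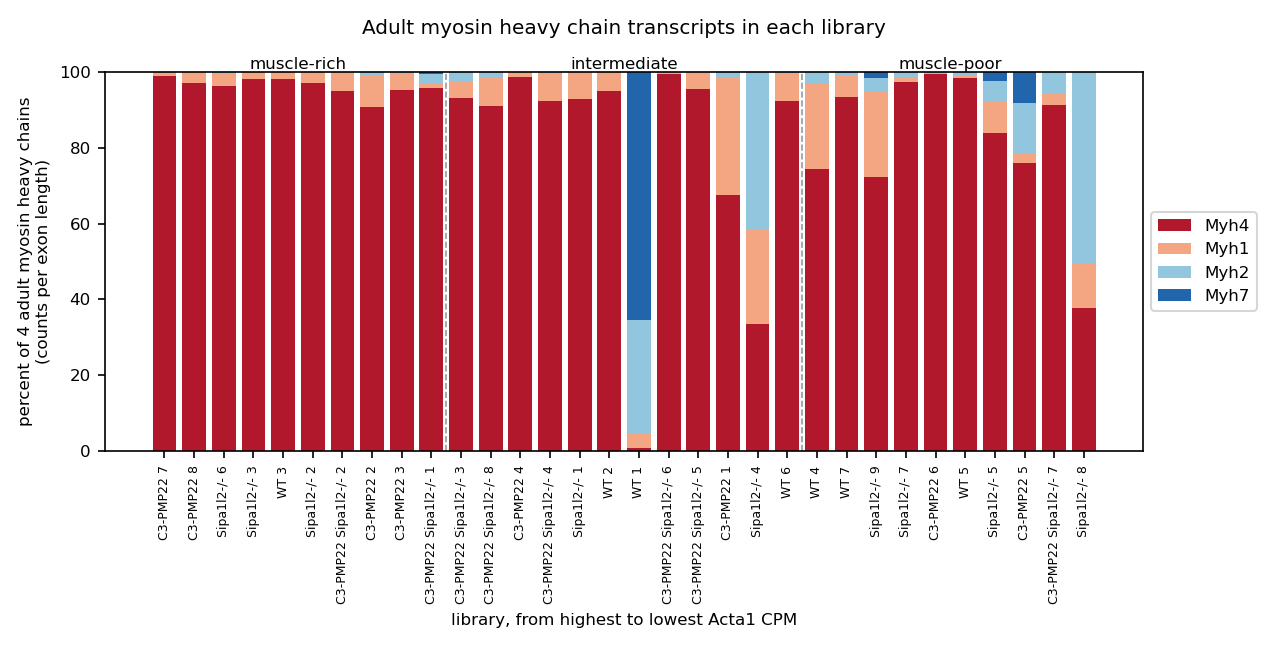
Percent of the counts per exon length of 4 adult myosin heavy chain genes that each one holds, stacked to 100 in each library, from the highest to the lowest Acta1 CPM; dashed lines separate the muscle-rich, intermediate and muscle-poor libraries. Myh4 holds 90.6% or more in the 10 muscle-rich libraries, and WT 1 stands apart with 65.4% Myh7.

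Transcripts of muscle stem cells, myogenic factors and the neuromuscular junction were also listed. Of 24 listed genes, 19 passed the filter on low counts, and 6 rose in the intermediate libraries. All 19 were higher on the muscle-rich side (median difference 4.70), against 14.9% of all genes compared. Members near 0 in the muscle-poor libraries passed the filter through the muscle-rich side, so this count is no support. Within the plain-number libraries 11 of 19 were higher. Mef2c, a transcription factor of muscle and other tissues, was the most abundant, at 142 to 518 CPM on the muscle-rich side and 32.7 to 70.7 CPM on the muscle-poor side. Its slope was 0.66 ± 0.06 (edgeR adjusted p = 0.00022). Mef2a and Mef2d, its relatives in many tissues, differed by 0.69 ± 0.14 and 0.84 ± 0.14, and their slopes of 0.12 ± 0.04 and 0.13 ± 0.04 did not pass the test (edgeR adjusted p = 0.31 and 0.17). Myog, the myogenic differentiation factor, had 1.05 to 5.77 CPM against 0 to 0.0880 CPM in the muscle-poor libraries, with a slope of 1.45 ± 0.26 (edgeR adjusted p = 0.013). Pax7, which marks satellite cells, had 0.366 to 1.37 CPM on the muscle-rich side and 0 to 0.176 CPM on the muscle-poor side. Musk, the receptor kinase of the neuromuscular junction, had 10.8 to 51.0 CPM against 6.34 to 29.3 CPM, with overlapping ranges and a log2 difference of 0.84 ± 0.29.

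The dystrophin complex and membrane repair list was split. Of 21 genes, 14 were higher and 3 lower (median 2.42), and 9 rose in the intermediate libraries. Sgca, the muscle alpha-sarcoglycan, had 19.3 to 61.5 CPM on the muscle-rich side and 0 to 2.98 CPM on the muscle-poor side, with a slope of 1.04 ± 0.07 (edgeR adjusted p = 3.4e-05). Trim63, a ubiquitin ligase of muscle, had 44.6 to 146 CPM against 0.0880 to 4.51 CPM, with a slope of 1.28 ± 0.14 (edgeR adjusted p = 0.0010). The lower genes were Utrn, Itga7 and Sntb1. Itga7, a laminin receptor of muscle and Schwann cells, had 102 to 194 CPM on the muscle-rich side and 160 to 306 CPM on the muscle-poor side, a log2 difference of -0.45 ± 0.14. Of the 12 developmental and cardiac sarcomere genes only 6 could be compared, and 2 of them, Actc1 and Myh8, were higher. Actc1, cardiac actin, had 19.7 to 460.5 CPM against 0.151 to 3.44 CPM, and its slope of 0.85 ± 0.52 did not pass the test (edgeR adjusted p = 0.79).

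Genes of the respiratory chain were higher on the muscle-rich side, by less than most sarcomere genes. All 13 mitochondrially encoded genes were higher (median difference 1.00), and all 29 listed nuclear OXPHOS genes were (median 0.95, range 0.39 to 1.65), against 14.9% of all genes compared. Under total-count scaling the medians were 0.73 and 0.69. No slope of either list passed edgeR's test in the intermediate libraries, where the medians were 0.19 and 0.12. mt-Co1, a cytochrome c oxidase subunit, had 20559 to 31843 CPM on the muscle-rich side (median 22577) and 12141 to 16765 CPM on the muscle-poor side (median 15223), without overlap, and differed by 0.88 ± 0.17. Cox5a, the most different nuclear gene, had 71.6 to 145 CPM against 30.2 to 48.4 CPM, a log2 difference of 1.65 ± 0.19 and a slope of 0.23 ± 0.08 (edgeR adjusted p = 0.29). The nuclear list's median was 0.67 within the plain-number libraries, which rests on Sipa1l2-/-, and 1.64 within the G libraries, which rests on C3-PMP22. For the mitochondrially encoded genes the medians were 0.89 within the plain-number libraries and 1.96 within the G libraries. Whether series, genotype or single libraries set these apart was not tested. The G libraries of the muscle-rich side are C3-PMP22 7 and C3-PMP22 8 alone, and without them the medians were 0.84 for the nuclear and 0.81 for the mitochondrial list.

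**Figure D5:**
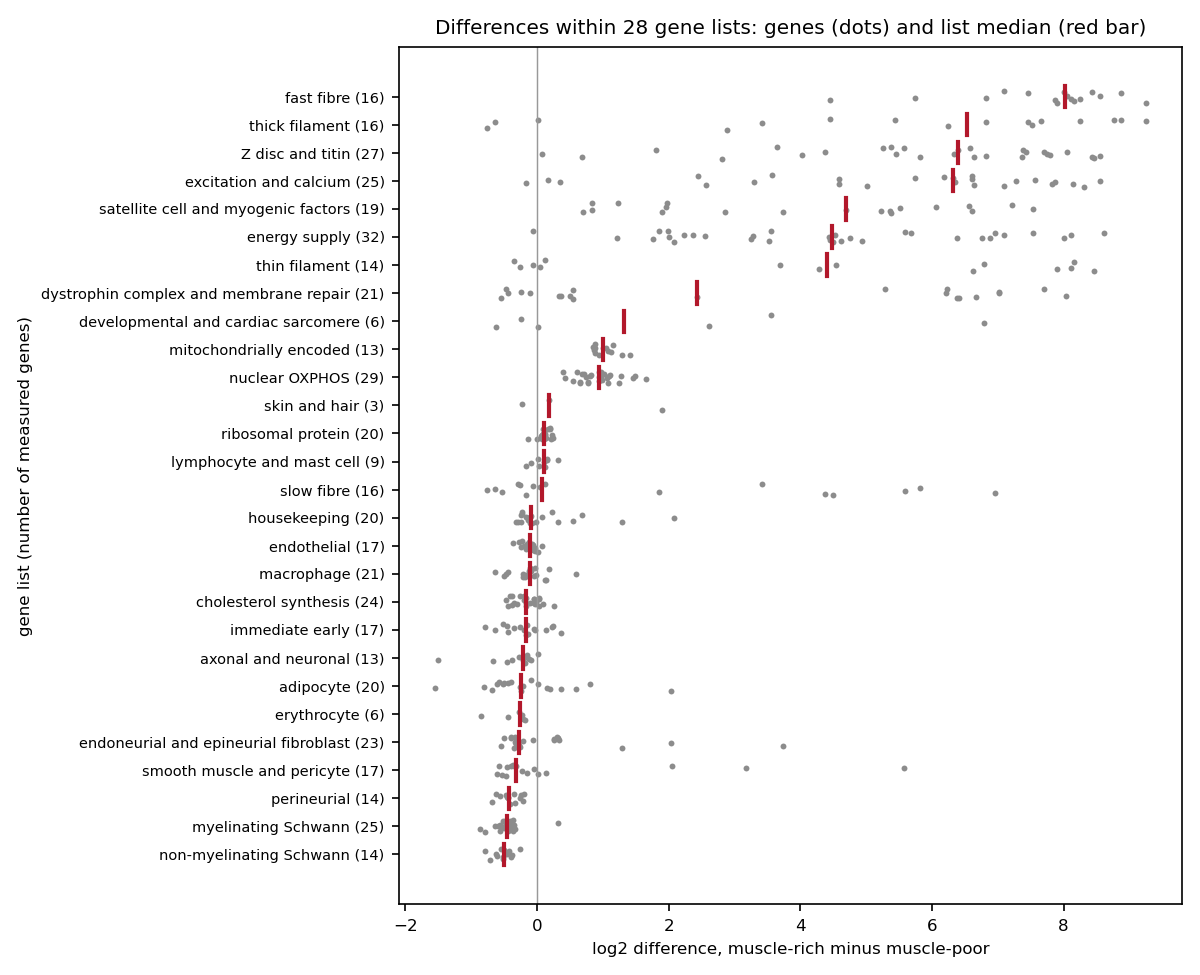
Log2 difference of the muscle-rich minus the muscle-poor side for the measured genes of 28 lists (dots) and each list's median (red bar), with the number of measured genes in brackets. Fast-fibre genes have a median of 8.03, both OXPHOS lists one near 1, ribosomal protein genes 0.11, and the Schwann cell lists -0.46 and -0.51.

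Schwann cell transcripts showed no slope on muscle content past the test, and most were slightly lower on the muscle-rich side. Of 25 myelinating Schwann cell genes, none was higher and 2 were lower on the muscle-rich side, Gldn and Pou3f1, against 11.3% of all genes compared, so the count of lower genes is no result about these cells. The median difference was -0.46, and no slope passed edgeR's test (median slope -0.02). The list's summed level was 6273 to 25560 CPM on the muscle-rich side and 13187 to 40193 CPM on the muscle-poor side. The list's median was -0.17 with the number series added, 0.23 within the plain-number libraries and -0.34 within the G libraries, so its sign is not set. With total-count scaling 21 of the 25 genes were lower, against 6616 of all 15728 genes compared.

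The other nerve lists differed by similar amounts. Of 14 non-myelinating Schwann cell genes 6 were lower (median -0.51), and of 14 perineurial genes 6 were lower (median -0.43), against 11.3% of all genes compared. With the number series added, none of either list passed, though 13 of 14 differences in each stayed negative, with medians of -0.34 and -0.29. With total-count scaling 13 of 14 were lower in each, against 6616 of all 15728 genes compared. Within the plain-number libraries the medians of the 2 lists were -0.03 and 0.04. Scn7a, a sodium channel of non-myelinating Schwann cells, had 259 to 605 CPM on the muscle-rich side and 572 to 990 CPM on the muscle-poor side, a log2 difference of -0.51 ± 0.16 and a slope of -0.04 ± 0.15. Apod, apolipoprotein D, differed by -0.43 ± 0.15 but by 0.05 within the plain-number libraries, and Tjp1, a tight junction protein of the perineurium, by -0.35 ± 0.11 and 0.02. Of 13 measured axonal genes 2 were lower, Stmn2 by -0.38 ± 0.13 and Sncg, gamma-synuclein, by -0.67 ± 0.21. The axonal list's median was -0.21, and 0.11 with the number series added, so its sign is not set. No slope in these lists passed edgeR's test.

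In the fibroblast, endothelial, immune and blood lists the counts lay near or below the 14.9% higher and 11.3% lower of all genes compared. Of 23 fibroblast genes 3 were higher (Cilp, Chodl and Scx, a tendon transcription factor) and 3 lower (Sox9, Etv1 and Cdkn2a), and with total-count scaling 13 were lower. Chodl also stands in the satellite cell list. Dcn, the collagen-binding proteoglycan decorin, had 2613 to 4244 CPM on the muscle-rich side and 3319 to 5718 CPM on the muscle-poor side, a log2 difference of -0.22 ± 0.12. None of 17 endothelial genes passed in either direction (median -0.10), and 2 of 21 macrophage genes were lower. No macrophage slope passed edgeR's test in the intermediate libraries. Of these slopes 20 were negative and 1 positive (median -0.15), against 53.2% negative over all genes. None of 9 lymphocyte and mast cell genes passed. None of 6 erythrocyte genes passed either, and their median of -0.25 was 0.10 without C3-PMP22 7 and C3-PMP22 8, 1.62 within the plain-number libraries and -3.70 within the G libraries, so its sign is not set. Of 24 cholesterol synthesis genes 1 was lower, and of 17 immediate early genes 2 were. With total-count scaling these counts were 12 and 5. Under that scaling 6616 of all 15728 genes compared were lower.

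The adipocyte list depended on whether the number series was in the fit. Its summed level was 0.722% to 4.42% of counts on the muscle-rich side (median 1.89%) and 0.986% to 4.00% on the muscle-poor side (median 3.07%), so the sides overlapped. Of 20 measured genes 1 was higher and none lower (median -0.25), against 14.9% and 11.3% of all genes compared. With the number series added, 11 of the 20 were lower and the median was -1.11. In that fit 1789 of all 15728 genes compared were lower. Within the plain-number libraries the median was -1.30 and within the G libraries -1.23, with 1 and 2 genes lower. The higher gene was Acacb, an acetyl-CoA carboxylase that muscle also makes, at 125 to 262 CPM against 22.8 to 104 CPM and a log2 difference of 2.03 ± 0.30. Its slope of 0.16 ± 0.09 did not pass the test (edgeR adjusted p = 0.76). Fasn, fatty acid synthase, had 205 to 5271 CPM on the muscle-rich side and 421 to 3251 CPM on the muscle-poor side.

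Of 17 smooth muscle and pericyte genes 3 were higher, Des, Synm and Abcc9, and 2 lower. These counts lie near the 14.9% higher and 11.3% lower of all genes compared and are no result about these cells. The same 3 higher genes rose in the intermediate libraries, against 1.96% of all genes tested. Synm, synemin, an intermediate filament partner of desmin, had 241 to 833 CPM on the muscle-rich side and 45.5 to 94.6 CPM on the muscle-poor side, with a slope of 0.58 ± 0.11 (edgeR adjusted p = 0.026). Abcc9, the regulatory subunit of a potassium channel of pericytes and muscle, had 93.2 to 235 CPM against 24.0 to 87.7 CPM, with a slope of 0.43 ± 0.06 (edgeR adjusted p = 0.0045). Tagln, a calponin-family protein of smooth muscle, had 115 to 400 CPM on the muscle-rich side and 135 to 502 CPM on the muscle-poor side, with a log2 difference of 0.02 ± 0.19. The smooth muscle myosin Myh11 differed by -0.53 ± 0.48.

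Outside the lists, the 8 genes with the largest differences past the threshold in both comparisons were Mypn, Myo18b, Ky, Rpl3l, Klhl31, Asb11, Fbxo40 and Hfe2. Mypn, myopalladin of the Z disc, had 81.0 to 336 CPM on the muscle-rich side and 0 to 7.64 CPM on the muscle-poor side, with a slope of 1.02 ± 0.13 (edgeR adjusted p = 0.0018). Rpl3l, a ribosomal protein made in heart and skeletal muscle in place of Rpl3, had 41.9 to 156 CPM against 0 to 6.19 CPM, with a slope of 1.10 ± 0.07 (edgeR adjusted p = 2.3e-05). Hfe2, hemojuvelin of iron metabolism, had 75.2 to 290 CPM against 0 to 9.47 CPM, and the slope with the smallest adjusted p of the 8, 1.14 ± 0.05 (edgeR adjusted p = 7.5e-06). The differences of the 8 lay between 7.38 and 8.17, and their slopes between 1.00 and 1.15.

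In the downward direction only Glb1l, a beta-galactosidase-like gene, passed in both. It had 7.74 to 14.4 CPM on the muscle-rich side and 15.5 to 23.7 CPM on the muscle-poor side, without overlap, and 8.6% of its exon length overlaps Ankzf1. Its log2 difference was -0.66 ± 0.10 and its slope -0.23 ± 0.04 (edgeR adjusted p = 0.023), and within the plain-number and the G libraries the differences were -0.96 and -0.83. The other 3 genes with falling slopes, named after their values were seen, were Hp, haptoglobin, and the serine protease inhibitor genes Serpina3n and Serpina3m. Hp had a slope of -0.46 ± 0.08 (edgeR adjusted p = 0.012), and 98.3 to 1159 CPM on the muscle-rich side against 124 to 2304 CPM on the muscle-poor side. Serpina3n had a slope of -0.38 ± 0.06 (edgeR adjusted p = 0.0056), and 73.3 to 303 CPM against 135 to 511 CPM. The ranges of both overlapped. Serpina3m and Serpina3n are near copies, between which reads may be split.

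Many genes differed little between the sides. For 6837 genes, 43.5% of those compared, the 95% interval of the log2 difference lay inside -0.5 to 0.5. The 8 most abundant were Eef1a1, Dcn, Malat1, Vim, Igfbp5, Eef2, Neat1 and Nedd4. Eef1a1, the main elongation factor, had 2673 to 5049 CPM on the muscle-rich side and 4398 to 5852 CPM on the muscle-poor side, a log2 difference of -0.13 ± 0.11. Eef2, the translocation factor of protein synthesis, had 1306 to 1797 CPM against 1419 to 1736 CPM, a difference of 0.22 ± 0.08 that was -0.03 with total-count scaling. Malat1, a nuclear long noncoding RNA, had 1853 to 2978 CPM against 2000 to 3746 CPM, a difference of -0.11 ± 0.14.

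None of the 20 ribosomal protein genes passed in either direction. Their median difference was 0.11, and -0.13 with total-count scaling, so its sign is not set. Among 20 genes in common use as references, 5 were higher and 2 lower, against 14.9% and 11.3% of all genes compared. With total-count scaling 4 were higher and 11 lower, against 1473 and 6616 of all 15728 genes compared. The list does not hold Gapdh, which was counted with the energy genes. The higher ones were Pgk1, Tfrc, Sdha, Vcp and Psmb4, at differences of 2.08, 1.28, 0.68, 0.55 and 0.31, and the lower ones were Polr2a at -0.25 and Ywhaz at -0.24. Actb, the broad partner of Acta1, differed by -0.23 ± 0.10, and no slope of these 20 passed edgeR's test.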

How the data were processed

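RNA was taken from sciatic nerve with TRIzol and miRNeasy columns and DNase, poly(A) selected, made into KAPA mRNA HyperPrep libraries and sequenced in pairs on a NovaSeq, per the labels' protocols. Trim Galore, FastQC, RSEM and the builds GRCm38 and mm10 are named in the submitters' processing notes, which give neither an aligner nor an annotation. The authors deposited 1 table of expected counts for 45706 genes in 32 libraries. All deposited expected counts were whole numbers (0 values were not), unscaled, with totals of 11030976 to 16990990 per library. Gene symbols were matched for 45143 identifiers, and 19082 genes had no count in any library.

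CPM were computed from each library's total. Both comparisons were fitted with edgeR 4.0.16 (R 4.3.3): TMM scaling, genes kept by filterByExpr (minimum count 10, minimum total 15), quasi-likelihood test, Benjamini-Hochberg adjustment over all genes tested, adjusted p threshold 0.05, genotype additive. The comparison of sides used 10 against 10 libraries; the slope used log2 Acta1 CPM in the 12 between. CPM are per total count, whereas log2 differences use TMM and the genotype term. Acta1 is left out of counts of genes. Exact or permutation tests (100000 resamples) compared the makeup of the sides. The scripts were tested on simulated data.

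The sides, the 28 gene lists (497 genes, 32 of them in more than 1 list) and the 23 pairs were chosen with earlier results of these data known. Named genes are Acta1, Ckm and members of the pairs, the up to 3 highest members of each list by mean CPM, members on which a list's count turns, the 8 largest changes each way outside the lists past the threshold in both comparisons with a mean no lower than 1 CPM, and the 8 most abundant genes whose interval lay inside -0.5 to 0.5; other genes were named after their values were seen. Whether the deposited counts used strand was not checked, so reads of overlapping genes may not be told apart. Alternatives tried were other scalings and filters, DESeq2 1.42.0, added or dropped terms, number series, other side sizes, ranking by Ckm and leaving out each library. Promoters and coordinates came from RefSeq GRCm38.p6 and GENCODE M21. Values of some single genes are not reported here.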

Additional observations from a re-analysis of the deposited data

Results flagged for a closer look

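Within each side, the highest or lowest library of 256 gene and side groups was set against the other 9 by Dixon's ratio on log2 CPM. In 9 groups a library stood apart, some libraries more than once, and chance alone does this in about 1 of 20 groups. On the muscle-poor side, WT 4, the library with the most Acta1 there, had 135 CPM of Pygm, muscle glycogen phosphorylase, against 21.8 to 55.2 CPM in the others. It also had 53.0 CPM of Phka1, the muscle phosphorylase kinase subunit, against 19.0 to 26.5 CPM, and 2.60 CPM of Asb11 against at most 0.55 CPM. WT 5 had 5.68 CPM of Cox7a1, against 2.04 to 3.22 CPM.

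On the muscle-rich side, C3-PMP22 3 was low in 2 fibrillar collagen genes, with 735 CPM of Col1a2 against 889 to 1419 CPM and 456 CPM of Col3a1 against 912 to 2107 CPM. C3-PMP22 Sipa1l2-/- 2 had 967 CPM of Lyz2, lysozyme of macrophages, against 525.9 CPM in the next highest. C3-PMP22 Sipa1l2-/- 1, which also had the most Myh7 of this side, had 214 CPM of Atp2a2 against 91.4 to 150 CPM. C3-PMP22 2 had 557 CPM of the ribosomal protein gene Rpl4, against 596 to 888 CPM.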

How the results depend on the processing

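The 2339 genes higher on the muscle-rich side became 1473 with total-count scaling and 688 within the plain-number libraries, and lay between 1964 and 2622 when 1 library was left out. The 1775 lower genes became 6616 with total-count scaling, 2747 when scaled by counts outside the muscle lists, 849 without C3-PMP22 7 and 8, 179 within the plain-number and 805 within the G libraries, and 960 to 1874 when 1 library was left out. With the sample number as a replicate block, 2027 genes were higher and 590 lower; the numbers share no stated source, and 27 of 45 same-numbered pairs of libraries deviated together by a correlation over 0.1, against 138 of 338 differently numbered pairs. The 309 rising slopes became 487 with DESeq2 and 147 to 327 when 1 library was left out. The 4 falling slopes became 22 with DESeq2, 45 with labelled sex added, 21 with no genotype term, 10 with the number series added, 7 with the slope on Ckm, and 1 to 7 when 1 library was left out. Leaving out C3-PMP22 7 and 8 does not apply to the slopes, as neither is among the 12. Direction was followed only for the 129 named genes. Of their differences past the threshold, changed in direction were Apod (0.0532) and Tjp1 (0.0191) within the plain-number libraries and Fosl2 (0.0986) within the G libraries. The cause was not tested. Of the named genes' alternative log2 differences, 4364 kept their call or, where there was none, stayed within the spread, 184 no longer passed the threshold, 135 newly did and 50 moved by more than the spread without a call, Eef2 among them, at -0.03 with total counts. Genes under about 1 CPM on both sides were limited by depth.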
